A study of Homo sapiens with 36 samples.

Results

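The miR-23/27/24 family is made from 2 paralogous clusters, the a cluster (miR-23a, miR-27a and miR-24-2) and the b cluster (miR-23b, miR-27b and miR-24-1). It was followed in small RNA libraries of WI-38, fibroblasts derived from normal human lung, as the cells entered senescence. The members were the 10 mature miRNAs of these hairpins chosen by name, out of 1508 miRNAs listed in the deposited table. They were hsa-miR-23a-3p, hsa-miR-23a-5p, hsa-miR-27a-3p, hsa-miR-27a-5p, hsa-miR-24-3p, hsa-miR-24-2-5p, hsa-miR-23b-3p, hsa-miR-27b-3p, hsa-miR-27b-5p and hsa-miR-24-1-5p, and the species prefix is left out in most places below. The 36 libraries came from 18 conditions with 2 biological replicates each. Ctrl cells were young and proliferating, without treatment. Plasma membrane damage-dependent senescent (PMD-Sen) cells were given the detergent SDS at 0.0095% for 24 h. Cells made senescent through the DNA damage response (DDR-Sen) were given doxorubicin (DXR), a DNA-damaging drug, at 250 nM for 24 h. Each series was sampled on the day the agent was removed (D0) and at D1, D2, D3, D4 and then D6, D8 and, last, D16. Cells in replicative senescence (RS) had reached it by serial passage. All groups are the same cell strain grown in culture.

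A miRNA is cut from one arm of a hairpin, and the 5p and 3p strands of a hairpin are its 2 possible products. The loaded strand guides Argonaute proteins to mRNAs mainly through its seed, bases 2 to 8, so paralogs with the same seed share most of their predicted targets. The clusters are known for roles in cell proliferation, lipid metabolism, the vasculature and TGF-beta signalling, and each is processed from a primary transcript that holds 3 hairpins.

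The mature sequences of the 3p strands are shown because the a and b paralogs must be told apart in the reads by very few bases. They were taken from RefSeq (GRCh38.p14), where all 10 members were found, and the seed is in capitals.
miR-23a-3p: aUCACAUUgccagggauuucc
miR-23b-3p: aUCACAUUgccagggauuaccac
miR-27a-3p: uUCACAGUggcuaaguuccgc
miR-27b-3p: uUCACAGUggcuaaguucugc
miR-24-3p: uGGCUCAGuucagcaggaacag
Counted from 1 at the 5′ end, with the a paralog's base first, miR-23a-3p and miR-23b-3p differed by U19A over the 21 bases they share, and miR-23b-3p was listed with 23 bases. miR-27a-3p and miR-27b-3p differed by C19U. A read that ends before base 19 fits both paralogs, and the counting pipeline then divides it. Counts of miR-23a-3p, miR-23b-3p, miR-27a-3p and miR-27b-3p were not whole in 18, 19, 17 and 17 of the 36 libraries. A whole count can also hold divided reads, so the other libraries are not shown to be free of them. Levels of these 4 miRNAs, and their b to a ratios below, are therefore uncertain by the reads that were divided. miR-24-3p has the same sequence at both loci, so its count cannot be assigned to either cluster.

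The 5p strands are shown because they can be assigned to 1 hairpin with more certainty.
miR-23a-5p: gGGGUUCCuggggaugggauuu
miR-23b-5p: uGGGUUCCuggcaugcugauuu
miR-27a-5p: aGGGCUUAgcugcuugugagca
miR-27b-5p: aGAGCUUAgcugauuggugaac
miR-24-2-5p: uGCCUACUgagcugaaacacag
miR-24-1-5p: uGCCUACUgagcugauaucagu
miR-23a-5p and miR-23b-5p shared a seed, and so did miR-24-2-5p and miR-24-1-5p. The seeds of miR-27a-5p and miR-27b-5p differed by G3A. Over 22 bases the number of differences was 7 for the miR-23 pair, 8 for the miR-27 pair and 6 for the miR-24 pair.

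In GRCh38, the build the submitters name, the a cluster lies on the minus strand of chromosome 19. MIR23A is at 13836587 to 13836659, MIR27A at 13836440 to 13836517 and MIR24-2 at 13836287 to 13836359, within 373 bases. GENCODE places all 3 in an exon of the lncRNA gene MIR23AHG on the same strand. The b cluster lies on the plus strand of chromosome 9, with MIR23B at 95085208 to 95085304, MIR27B at 95085445 to 95085541 and MIR24-1 at 95086021 to 95086088, within 881 bases. MIR23B and MIR27B lie in an intron of the protein-coding gene AOPEP on the same strand, and MIR24-1 overlaps an exon of at least 1 of its transcripts, outside coding sequence and annotated UTRs.

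The library totals ranged from 81668 to 1933435 counts with a median of 376989, and 360 miRNAs passed the low-count filter. Of the 10 members, 9 passed. miR-24-1-5p did not: it had 0 to 22 counts, a median of 2, and 0 counts in 7 libraries. The members together took 4.94% of the Ctrl counts and 6.49% of the RS counts. Fibroblast miRNAs summed to 64063 to 145423 CPM (counts scaled to a common library size by TMM) in each library, against 14.6 to 163 CPM for 5 epithelial miRNAs. Of the 8 fibroblast miRNAs, miR-21-5p and miR-22-3p had the highest medians (59939 and 12148 CPM) and miR-199b-5p the lowest (77.5 CPM). Of 7 blood cell miRNAs, 2 were not listed and miR-451a, miR-223-3p, miR-142-5p and miR-150-5p had medians of 0 CPM. miR-486-5p made up nearly all of their sum, which was 200 CPM in Ctrl, 298 at D16 of PMD-Sen, 500 at D16 of DDR-Sen and 772 in RS. The endothelial miRNAs, mostly miR-126-3p, summed to 49.4, 137, 145 and 159 CPM in the same order, and miR-126-3p was called higher in all 3. Fibroblast miRNAs were called lower for 3 of 8 at D16 of DDR-Sen (1 was higher), 3 of 8 in RS and 5 of 8 late against early in DDR-Sen. In PMD-Sen, late against early, 1 of 8 fibroblast miRNAs, miR-200c-3p and miR-122-5p were called lower, and the last had 249 CPM at D1 and 12.3 at D16. The part of any of these in the results below was not tested. Totals were higher late than early in PMD-Sen, with medians of 459166 and 326830 over 6 libraries each. In DDR-Sen the late and early medians were 447694 and 388512. Medians were 275451 in Ctrl and 531580 in RS, over 2 libraries each. The highest total, 1933435, was that of PMD-Sen D16 replicate 1, beside 440285 in replicate 2, and fits without replicate 1 are given below. The part of depth was not tested.

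Over all 36 libraries the 3p strands were the abundant products. hsa-miR-23a-3p had 19305 to 28911 CPM with a median of 22579, and ranked 10 among all miRNAs. hsa-miR-24-3p followed with 12984 to 32349 CPM and a median of 20815. These ranges overlapped, so the order of the pair is not set by these data. hsa-miR-23b-3p had a median of 4780 CPM, hsa-miR-27b-3p one of 2650 and hsa-miR-27a-3p one of 1980. The 5p strands were lower, with medians of 224 CPM for miR-23a-5p, 120 for miR-24-2-5p, 108 for miR-27a-5p and 78.8 for miR-27b-5p. miR-24-1-5p had a median of 6.72 CPM. CPM of different miRNAs also carry the efficiency with which each is ligated, so the order describes read counts rather than molecules.

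**Figure D1:**
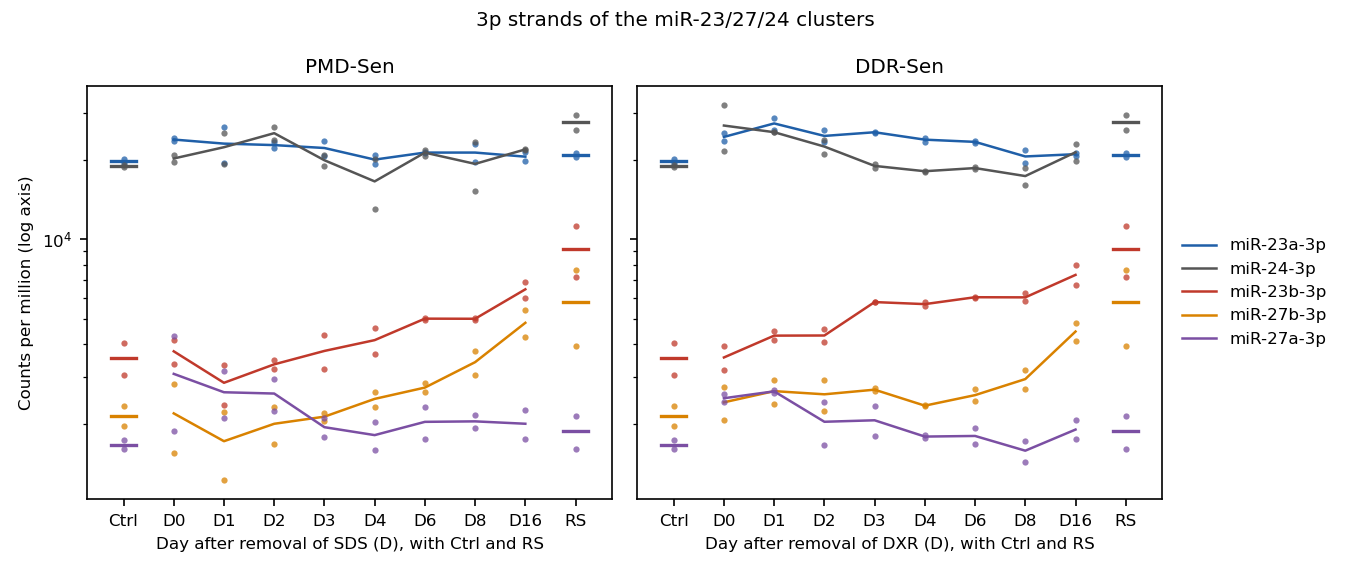
CPM (log axis) of the 5 tested 3p strands in PMD-Sen (left) and DDR-Sen (right) by day after removal, with Ctrl and RS at the sides. Points are libraries and lines or bars are means of 2 replicates. miR-23b-3p and miR-27b-3p lie higher at D16 and in RS than in Ctrl, while miR-23a-3p stays between 19305 and 28911 CPM.

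The comparison with Ctrl asks which members differ once senescence is established. In the b cluster, miR-23b-3p and miR-27b-3p were higher at D16 of both series and in RS. The 5p strand of miR-27a was lower in all 3. In the a cluster, miR-23a-3p and miR-27a-3p did not pass the test in any of them. miR-24-3p, made by both clusters, is given apart below. miR-23b-3p and miR-27b-3p share their seeds with miR-23a-3p and miR-27a-3p. miR-23b-3p had 3059 and 4030 CPM in Ctrl, 6912 and 6008 at PMD-Sen D16, 7973 and 6679 on D16 of DDR-Sen, and 7186 and 11198 in RS. All 6 senescent libraries lay above both Ctrl libraries. The log2 fold change was 0.86 (SE 0.21) at PMD-Sen D16, 1.05 (SE 0.21) on D16 of DDR-Sen and 1.37 (SE 0.21) in RS. In edgeR's quasi-likelihood test, p values adjusted over the 360 miRNAs by Benjamini-Hochberg were 0.00566, 0.000456 and 1.32e-05.

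miR-27b-3p, whose family is known to repress regulators of adipogenesis and angiogenesis, had 1951 and 2334 CPM in Ctrl and 5397 and 4249 at PMD-Sen D16. It had 4111 and 4826 CPM on D16 of DDR-Sen, and 3951 and 7634 in RS. No senescent library overlapped the Ctrl libraries. The log2 fold changes were 1.17 (SE 0.27), 1.06 (SE 0.28) and 1.43 (SE 0.27). Their adjusted p values in the same edgeR test were 0.00556, 0.00561 and 0.000256. Without RS replicate 2, the higher of the pair, the RS value of miR-27b-3p was 0.74 (edgeR adjusted p = 0.0709) and that of miR-23b-3p was 0.88.

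The 3p strands of miR-23a and miR-27a were close to Ctrl. miR-23a-3p had 19405 and 20142 CPM in Ctrl, 21409 and 19722 at PMD-Sen D16, 20763 and 21265 on D16 of DDR-Sen, and 20453 and 21268 in RS. The groups overlapped only at PMD-Sen D16 and differed little elsewhere. Its log2 fold changes were 0.06 (SE 0.15), 0.09 (SE 0.15) and 0.08 (SE 0.15), and the first and the third took the other sign under another scaling (-0.036 and -0.023 with total counts). miR-27a-3p had 0.27 (SE 0.27), 0.19 (SE 0.27) and 0.17 (SE 0.27). Not passing the test does not show that these levels are equal.

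miR-24-3p, the strand made by both loci, had 19126 and 18835 CPM in Ctrl and 25912 and 29668 in RS. Its log2 fold change was 0.55 (SE 0.20) in RS, which passed narrowly (edgeR adjusted p = 0.0473), against 0.21 (SE 0.20) at PMD-Sen D16 and 0.17 (SE 0.20) on D16 of DDR-Sen. The RS call was lost with either other scaling, with DESeq2, with only the libraries compared, and without Ctrl replicate 1, Ctrl replicate 2 or RS replicate 2, where the value was 0.56, 0.54 and 0.31.

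**Figure D2:**
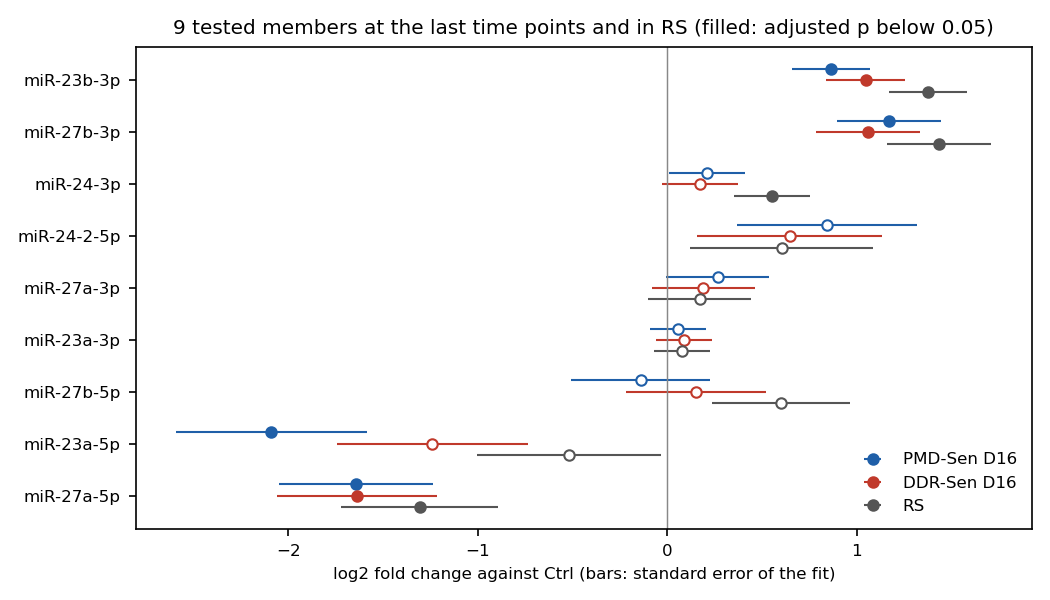
Log2 fold change against Ctrl of the 9 tested members at D16 of PMD-Sen, DDR-Sen D16 and in RS. Bars are the standard error of the fit and filled points have an adjusted p below 0.05. miR-23b-3p and miR-27b-3p are filled on the right and miR-27a-5p on the left in all 3 comparisons.

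The 5p strands of miR-23a and miR-27a, the less abundant products of their hairpins, went the other way from miR-23b-3p and miR-27b-3p. miR-27a-5p had 262 and 174 CPM in Ctrl, 64.8 and 74.8 at PMD-Sen D16, 80.4 and 59.5 on D16 of DDR-Sen, and 64.4 and 108 in RS. Every senescent library was below both Ctrl libraries. The log2 fold changes were -1.64 (SE 0.41), -1.64 (SE 0.42) and -1.31 (SE 0.41), with edgeR adjusted p values of 0.00753, 0.00554 and 0.0202. The RS call was lost without Ctrl replicate 1 or RS replicate 1, at -0.997 and -1.001, and with only the compared libraries or no filter, at -1.35 and -1.23. miR-23a-5p had 331 and 237 CPM in Ctrl and 63.1 and 70.4 at PMD-Sen D16, with no overlap. Its log2 fold change was -2.09 (SE 0.50, edgeR adjusted p = 0.00658). At DDR-Sen D16 miR-23a-5p had 132 and 107 CPM (-1.24, SE 0.50, edgeR adjusted p = 0.0738), and in RS 272 and 127 CPM (-0.52, SE 0.49), so neither passed. The first passed with no filter (-1.18, edgeR adjusted p = 0.033) and with only the libraries compared (-1.17, edgeR adjusted p = 0.00104), and the second ranged from -1.15 to -0.19 when 1 library was left out.

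Other 5p strands did not pass. miR-24-2-5p, from the same primary transcript as miR-23a-5p and miR-27a-5p, had log2 fold changes of 0.84 (SE 0.48), 0.65 (SE 0.49) and 0.60 (SE 0.48). Without 1 library they ranged from 0.45 to 1.28, from 0.26 to 1.08 and from 0.060 to 1.04. miR-27b-5p had -0.14 (SE 0.36), 0.15 (SE 0.37) and 0.60 (SE 0.36). miR-23b-5p, outside the 10 members, was measured at 12.9 to 129 CPM and had -0.43, -0.37 and 0.62. miR-23c, an X-linked relative with the miR-23 seed, had at most 13.5 counts and was not tested.

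In numbers, 4 of the 9 tested members passed at PMD-Sen D16 (2 higher, 2 lower), where 16.7% of all tested miRNAs did. At DDR-Sen D16 it was 3 of 9 (2 higher, 1 lower) against 23.1%, and in RS 4 of 9 (3 higher, 1 lower) against 22.5%. The median log2 fold change of the members was 0.21, 0.17 and 0.55, beside 0.05, -0.03 and 0.12 over all tested miRNAs. With DESeq2's size factors, the calls over all miRNAs at PMD-Sen D16 were 24 higher and 36 lower, in place of 32 and 28. The 3 comparisons share the Ctrl libraries. Without Ctrl replicate 1 the counts of members called were 0 (5 at unadjusted p below 0.05), 1 and 2. Without PMD-Sen D16 replicate 1 it was 0 (4 at unadjusted p), with adjusted p values of the 4 members between 0.0554 and 0.0758 in edgeR. Without DDR-Sen D16 replicate 2 it was 1, and without RS replicate 2 it was 2.

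Before D16 fewer members passed. In PMD-Sen no member passed from D0 to D8 in edgeR, with 14 of 63 fits at an unadjusted p below 0.05. Of all tested miRNAs, 0.278% were called at D0, 2.22% at D1, 2.5% at D2, 0.278% at D3, 3.89% at D4, 6.67% at D6 and 10% at D8. In DDR-Sen no member passed at D0, D1 or D2, with 7 of 27 fits at an unadjusted p below 0.05, where 0%, 0.278% and 0.278% of all tested miRNAs did. Over the time points before D16 of both series, edgeR and DESeq2 each made 6 member calls. miR-23b-3p was higher than Ctrl from DDR-Sen D3 on, by 0.70 at D3, 0.68 at D4, 0.76 at D6 and 0.76 at D8 (edgeR adjusted p = 0.0441, 0.0439, 0.0159 and 0.0141). miR-27a-5p was lower at DDR-Sen D6 by -1.42 and at D8 by -1.59 (edgeR adjusted p = 0.0283 and 0.013). That made 1, 1, 2 and 2 members of 9 at D3, D4, D6 and D8, beside 4.44%, 6.67%, 10.6% and 11.4% of all tested miRNAs.

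The comparison within each series used late libraries (D6, D8 and D16) against early ones (D1, D2 and D3), 6 of each, and so did not use Ctrl. In PMD-Sen miR-23b-3p and miR-27b-3p rose and miR-23a-5p and miR-27a-5p fell. Early levels could lie off Ctrl: in that order the log2 fold changes against Ctrl were -0.31, -0.31, 1.13 and -0.28 at D1. At D3 they were 0.09, -0.01, -0.20 and -0.90, and none of these passed. The third 5p strand of the a cluster, miR-24-2-5p, did not pass (0.36, SE 0.28), but it was 1.12 and called without D1 replicate 1. miR-23b-3p had 2363, 3288 and 4320 CPM early (lowest, median and highest) and 4941, 5049 and 6912 late, with no overlap. Its log2 change was 0.72 (SE 0.12, edgeR adjusted p = 5.14e-05). miR-27b-3p went from 1219, 2126 and 2322 CPM to 2638, 3421 and 5397, also without overlap (0.87, SE 0.16, edgeR adjusted p = 0.000131).

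miR-23a-5p went from 211, 318 and 905 CPM early to 63.1, 97.5 and 227 late in PMD-Sen, and 1 late library, D8 replicate 2, lay above the lowest early ones. Its log2 change was -1.86 (SE 0.28, edgeR adjusted p = 2.31e-05). Replicate 2 had the higher miR-23a-5p level on 7 of the 7 days from D1 to D16, and the same held for miR-27a-5p. For miR-23a-3p, miR-27a-3p and miR-27b-3p it was higher on 1 of 7 days, and for miR-23b-3p on 2. Taken within replicates, the mean log2 CPM of miR-23a-5p changed by -1.60 in replicate 1 and by -1.99 in replicate 2. That of miR-27a-5p changed by -0.61 and -0.92. In edgeR miR-27a-5p changed by -0.78 (SE 0.24, edgeR adjusted p = 0.0139). This call was lost in 5 of the 12 fits that left out 1 library (D1, D2 or D3 replicate 2, D6 or D8 replicate 1), and the log2 change was between -0.95 and -0.56 over all 12. It was also lost with no filter (edgeR adjusted p = 0.0711) and with only the libraries compared (edgeR adjusted p = 0.0531). In all, 4 of 9 members passed in PMD-Sen, beside 28.9% of all tested miRNAs.

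In DDR-Sen 3 of 9 members passed, beside 15.8% of all tested miRNAs. miR-23b-3p rose from 4084, 4511 and 5795 CPM to 5809, 6151 and 7973, with no overlap (0.44, SE 0.12, edgeR adjusted p = 0.0114). Without D1 replicate 1 or D2 replicate 2 the adjusted p in edgeR was 0.07 and 0.0688, at 0.37 and 0.38, and with no filter it was 0.0643, at 0.41. miR-27a-5p fell from a median of 142 CPM (lowest 82.5) to one of 79.9 (highest 81.8) (-0.88, SE 0.25, edgeR adjusted p = 0.0137), again with no overlap. This call was lost without D3 replicate 1, D8 replicate 1 or D16 replicate 2, and each time 1 member stayed called. miR-23a-3p fell by 0.26 on the log2 scale (SE 0.09, edgeR adjusted p = 0.0396), a call lost in 10 of the 12 fits that left out 1 library, with values of -0.33 to -0.23 over all 12. It was also lost with total counts (edgeR adjusted p = 0.131) and with no filter (edgeR adjusted p = 0.238). miR-27b-3p, at 0.29 (SE 0.16), and miR-23a-5p, at -0.74 (SE 0.29), did not pass in DDR-Sen. With only the libraries compared both passed, and miR-23a-5p also passed with no filter and without D1 replicate 1. With total counts in place of TMM, 35 miRNAs were higher and 19 lower in this comparison, against 27 and 30.

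**Figure D3:**
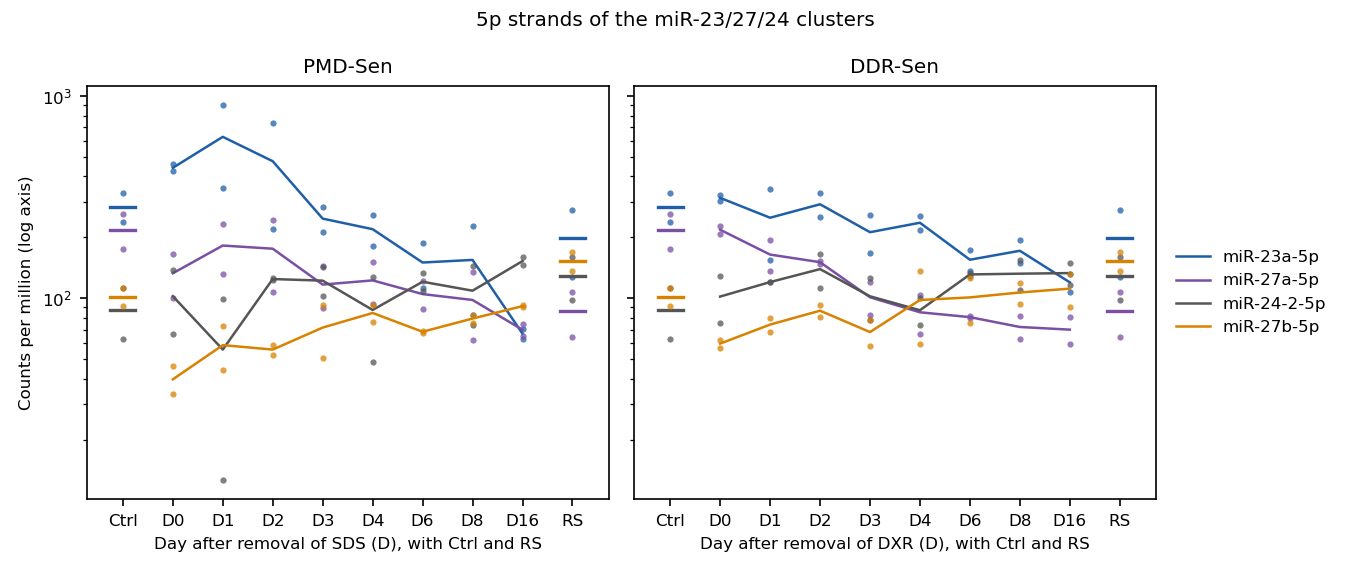
CPM (log axis) of the 4 tested 5p strands of the members in PMD-Sen (left) and DDR-Sen (right), with Ctrl and RS at the sides. Points are libraries and lines or bars are means of 2 replicates. miR-23a-5p and miR-27a-5p lie lower at D16 than in Ctrl, which passes the test except for miR-23a-5p in DDR-Sen (called under 2 other settings), and miR-27b-5p and miR-24-2-5p do not pass it.

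Whether the late-early change itself differed between the series was tested as an interaction. None of the 9 members passed in edgeR, and 0 passed with DESeq2's adjusted p, beside 3.61% of all tested miRNAs, and 2 had an unadjusted p below 0.05. These were miR-23a-5p (DDR-Sen minus PMD-Sen 1.12, SE 0.40, edgeR adjusted p = 0.0932) and miR-27b-3p (-0.58, SE 0.22, edgeR adjusted p = 0.109). In fits without PMD-Sen D1 replicate 1 there were 2 calls, and without PMD-Sen D2 replicate 1, PMD-Sen D8 replicate 2 or DDR-Sen D1 replicate 2 there was 1.

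Set directly against each other in the 28 libraries from D1 on, in a model that held the day, the series differed in 1 of 9 members, beside 23.4% of 346 tested miRNAs. miR-23b-3p was lower in PMD-Sen by 0.34 on the log2 scale, a value of -0.34 (SE 0.07, edgeR adjusted p = 0.000656), and lay between -0.42 and -0.30 when each library was left out. With total counts it was -0.22 and still passed. With total counts 4 members passed and 90 of all miRNAs were higher in PMD-Sen with 22 lower, in place of 44 and 37. That scaling moved the median over all miRNAs from 0.07 to 0.18. Without PMD-Sen D1 replicate 2 or PMD-Sen D3 replicate 1 the number was 2.

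The ratio of b to a paralog within a library does not depend on the scaling between libraries, and compares miRNAs with the same or nearly the same seed. It was taken as log2 of b over a counts, with 0.5 added to each. The miR-23b-3p to miR-23a-3p ratio was -2.66 and -2.32 in Ctrl, -1.63 and -1.71 at PMD-Sen D16, -1.38 and -1.67 on D16 of DDR-Sen, and -1.51 and -0.93 in RS. So miR-23a-3p was the more abundant in every library, and the senescent libraries lay above both Ctrl libraries. As linear ratios, miR-23a-3p exceeded miR-23b-3p by 5.63-fold in Ctrl, 3.19-fold at PMD-Sen D16, 2.88-fold on D16 of DDR-Sen and 2.32-fold in RS (means of the log2 ratios).

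**Figure D4:**
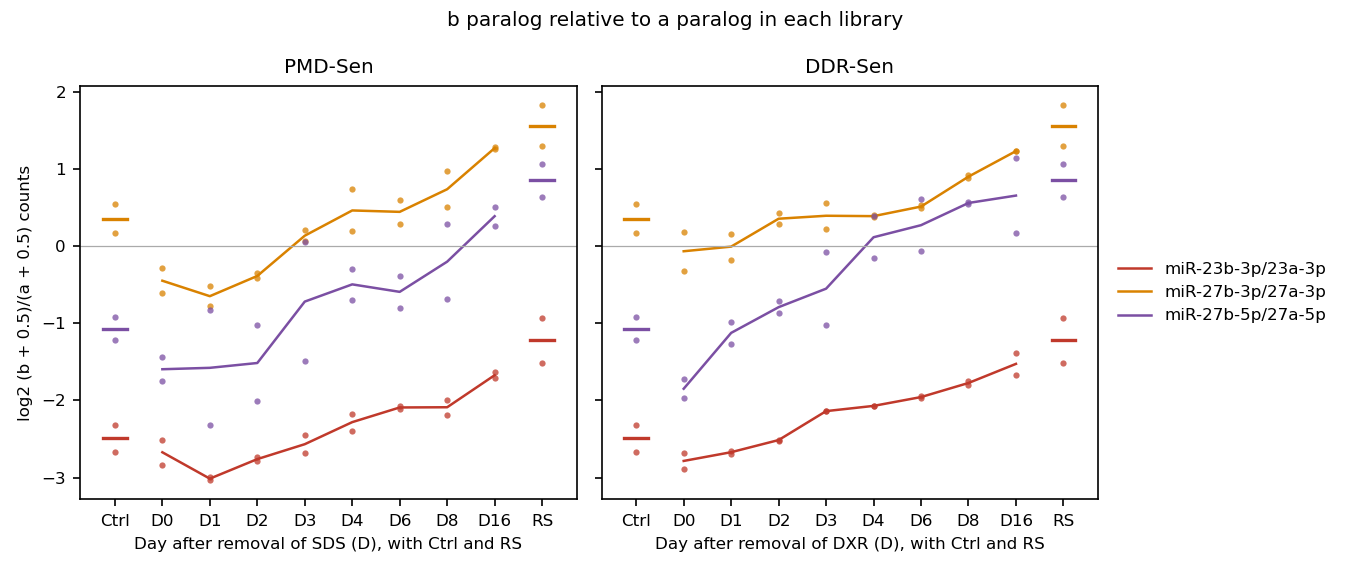
Log2 ratio of the b to the a paralog in each library (0.5 added to each count) in PMD-Sen (left) and DDR-Sen (right), with Ctrl and RS at the sides. Points are libraries, lines and bars are means of 2 replicates, and the grey line marks equal counts. All 3 ratios are higher at D16 than at D1 in both series.

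In PMD-Sen the miR-23b-3p to miR-23a-3p ratio was -3.04 to -2.45 early (median -2.76) and -2.18 to -1.63 late (median -2.03). The difference of the means was 0.83 (SD 0.21 early and 0.23 late, n = 6 each), and a two-sided exact permutation test gave p = 0.00216, the smallest it can give (adjusted p = 0.00433 over 8 tests). In DDR-Sen the ratio was -2.69 to -2.13 early and -1.97 to -1.38 late, a difference of 0.69 with the same exact permutation p and adjusted p. The groups did not overlap in either series. The 6 libraries of a period are 2 replicates of each of its days, and the test treats all libraries as exchangeable. Libraries of 1 day were alike early in DDR-Sen, where the means were -2.67, -2.51 and -2.14 at D1, D2 and D3 (SD 0.029, 0.0086 and 0.0060). On the other early and late days of both series the SD ran from 0.025 (DDR-Sen D6) to 0.21 (DDR-Sen D16), with 0.17 at PMD-Sen D3. The p values of this and the other late-early ratio tests therefore describe these libraries, not independent days.

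The miR-27b-3p to miR-27a-3p ratio crossed 0 in PMD-Sen, so that the paralog with more counts changed. It was -0.52 and -0.78 at D1, -0.35 and -0.42 at D2, and 1.26 and 1.29 at D16. Early libraries ranged from -0.78 to 0.20 and late ones from 0.29 to 1.29, a difference of 1.12 (exact permutation p = 0.00216, adjusted p = 0.00433). In DDR-Sen the ratio ranged from -0.17 to 0.56 early and from 0.49 to 1.24 late, and the difference was 0.63 (exact permutation p = 0.00649, adjusted p = 0.0104). In Ctrl the ratio was 0.17 and 0.55, and in RS it was 1.30 and 1.83.

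The 5p strands of miR-27 gave a ratio of -1.21 and -0.92 in Ctrl, 0.51 and 0.27 at PMD-Sen D16, 0.17 and 1.14 on D16 of DDR-Sen, and 1.06 and 0.64 in RS. Late minus early was 1.32 in DDR-Sen, with no overlap (exact permutation p = 0.00216, adjusted p = 0.00433). In PMD-Sen it was 1.14 with overlap (exact permutation p = 0.026, adjusted p = 0.0346). Without D1, D2 or D3 replicate 2, D8 replicate 1 or either D16 replicate, the PMD-Sen call was lost, at differences of 0.93 to 1.09. The miR-24-1-5p to miR-24-2-5p ratio rests on 0 to 22 counts of miR-24-1-5p. Late minus early was -1.28 in PMD-Sen (exact permutation p = 0.0649, adjusted p = 0.0742) and 0.41 in DDR-Sen (exact permutation p = 0.652). Without PMD-Sen D16 replicate 2 the first was -1.61 (exact permutation, adjusted p = 0.0289).

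For scale, 10 other paralog pairs had both members tested, most of them a and b pairs, with miR-29c-3p to miR-29a-3p and miR-30d-5p to miR-30a-5p among them. Their late-early differences ranged from -0.81 to 1.38 in PMD-Sen with a median of -0.35, and from -0.46 to 1.13 in DDR-Sen with a median of -0.28. The sign of a pair depends only on which letter is put first, so the sizes can be compared and the signed medians cannot. In PMD-Sen 1 of the 10 pairs, miR-146b-5p to miR-146a-5p (1.38), differed by at least as much in size as the miR-23 pair. It also did so for the miR-27 3p pair. In DDR-Sen 2 and 2 did, miR-29c-3p to miR-29a-3p (1.13) and miR-146b-5p to miR-146a-5p (1.06). At PMD-Sen D16 minus Ctrl the numbers were 4 and 3.

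The paralog ratios were also compared between the series on the 7 days from D1 to D16, by an exact sign-flip permutation over days with 4 tests. The miR-23b-3p to miR-23a-3p ratio was lower in PMD-Sen on 7 of 7 days, by a mean of -0.26 (SD 0.11 over days, permutation p = 0.0156, the smallest possible, adjusted p = 0.0313). The miR-27b-5p to miR-27a-5p ratio was lower on 7 of 7 days, by -0.55 (SD 0.26, exact permutation p = 0.0156, adjusted p = 0.0313), but with replicate 1 alone the mean was -0.023. The miR-27b-3p to miR-27a-3p ratio was lower on 5 of 7 days, by -0.25 (SD 0.32, exact permutation p = 0.0938, adjusted p = 0.125). Days of 1 series are not independent cultures of a condition, so these p values describe the days.

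**Figure D5:**
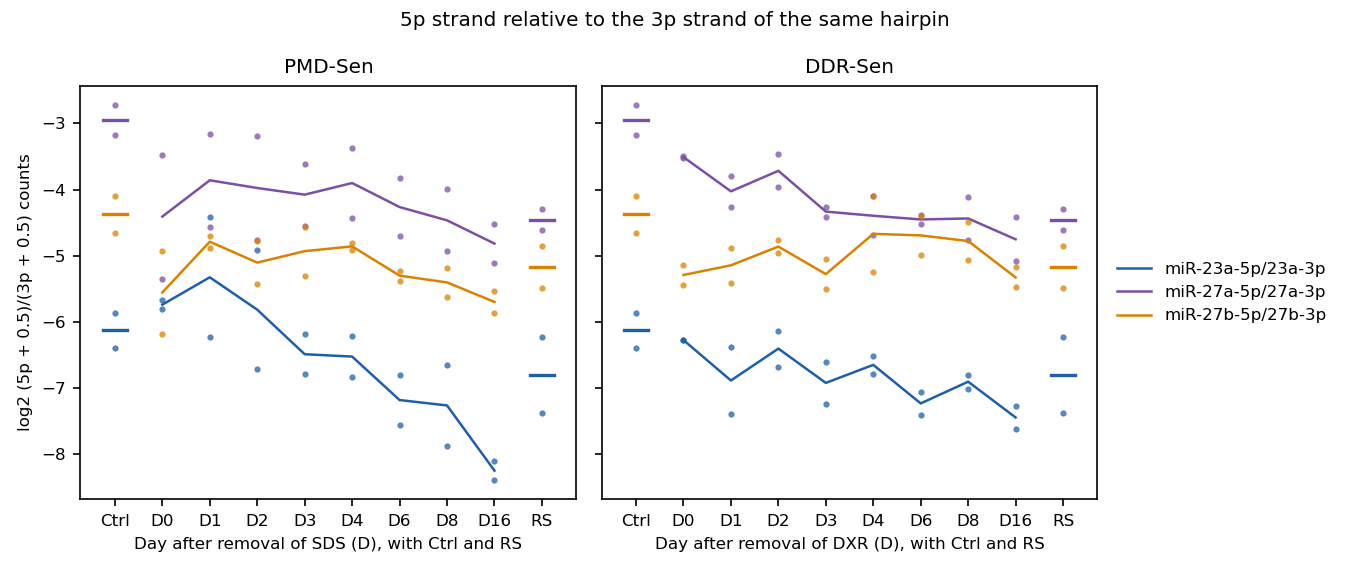
Log2 ratio of the 5p to the 3p strand of the miR-23a, miR-27a and miR-27b hairpins in each library (0.5 added to each count) in PMD-Sen (left) and DDR-Sen (right), with Ctrl and RS at the sides. Points are libraries and lines and bars are means of 2 replicates. The mean miR-23a ratio is -6.13 in Ctrl and, in PMD-Sen, -5.33 at D1 (SD 1.29) and -8.25 at D16 (SD 0.21). The D1 value is the highest of all condition means.

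The 5p to 3p ratio of 1 hairpin, a comparison chosen after the levels were seen, sets the 2 products of the same precursor against each other. For miR-23a the log2 ratio was -5.87 and -6.40 in Ctrl, -8.40 and -8.11 at PMD-Sen D16, -7.28 and -7.62 on D16 of DDR-Sen, and -6.23 and -7.38 in RS. In PMD-Sen it was lower late than early by -1.69 (exact permutation p = 0.00866, adjusted p = 0.0346 over 8 tests). The call was lost in 7 of the 12 tests that left out 1 library (-1.87 to -1.40 over all 12), and without D16 the difference was -1.35 (exact permutation, adjusted p = 0.181). In DDR-Sen the difference was -0.46 (exact permutation p = 0.0801, adjusted p = 0.128). For miR-27a the ratio was -2.72 and -3.18 in Ctrl, -5.11 and -4.52 at PMD-Sen D16, -4.42 and -5.09 on D16 of DDR-Sen, and -4.62 and -4.30 in RS. All of these senescent libraries lay below Ctrl, while late minus early was -0.54 in PMD-Sen (exact permutation, adjusted p = 0.228, and 0.0267 with the replicate number as a block) and -0.52 in DDR-Sen (exact permutation, adjusted p = 0.0563).

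On the b side the miR-23b ratio, which uses miR-23b-5p, was lower late than early by -0.83 in PMD-Sen without overlap (exact permutation p = 0.00216, adjusted p = 0.0173). That call was lost in 4 of the 12 tests that left out 1 library (-0.95 to -0.68 over all 12) and without D16. In DDR-Sen it was -0.11 (exact permutation p = 0.68). The miR-27b ratio differed by -0.53 in PMD-Sen (exact permutation p = 0.0216, adjusted p = 0.0563) and by 0.16 in DDR-Sen (exact permutation p = 0.446).

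Across the 18 condition means, log2 CPM of miR-23b-3p and miR-27b-3p had Pearson's r of 0.88, while miR-23a-3p and miR-27a-3p had 0.60 and miR-23a-3p and miR-23b-3p had -0.22. miR-23a-5p and miR-27a-5p had 0.76. The points share days, libraries and scaling, and no test was made. Among miRNAs outside the family, those most like miR-23b-3p were miR-495-3p (r = 0.87), miR-152-3p (0.86) and miR-26a-5p (0.84). For miR-27b-3p they were miR-487b-3p (0.87), miR-889-3p (0.85) and miR-136-3p (0.84). For miR-23a-5p they were miR-193b-5p (0.91), miR-320b (0.91) and miR-423-5p (0.89), and for miR-27a-5p miR-16-5p (0.86), miR-92a-1-5p (0.86) and miR-125b-1-3p (0.85). For miR-23a-3p they were miR-212-3p (0.73), miR-224-5p (0.73) and miR-132-3p (0.70), and for miR-27a-3p miR-212-3p (0.76), miR-122-5p (0.73) and miR-199a-5p (0.70). For miR-24-3p they were miR-130a-3p (0.79), let-7i-5p (0.77) and miR-652-3p (0.71), and for miR-24-2-5p miR-101-3p (0.77), miR-450b-5p (0.73) and miR-1185-1-3p (0.71).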

How the data were processed

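Total RNA of WI-38 cells was extracted with TRIzol, and the 36 libraries were made from it with a small RNA kit. The authors trimmed and mapped the reads (GRCh38, miRBase) with the exceRpt pipeline and deposited expected counts per mature miRNA, which are not normalized and divide a read among the miRNAs it fits. Of 54288 values, 1003 were not whole, and values were rounded for the tests.

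Counts were tested with edgeR 4.0.16 (R 4.3.3; TMM, filterByExpr, quasi-likelihood F test, 18 conditions, 18 residual degrees of freedom), with Benjamini-Hochberg adjustment over 360 miRNAs (346 between series) and a threshold of 0.05. The biological coefficient of variation was 20.9%. DESeq2 1.42.0 was an alternative. Ratios were tested by exact permutation with a pseudocount of 0.5. The tests were run on simulated data first. Log2 CPM used a prior count of 2. Replicates are separate biological samples per the labels. Fits without 1 library kept the miRNAs of the full fit.

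The 10 members, the lists and the tests were chosen with earlier results of these data known. The named miRNAs are the members, miR-23b-5p, miR-23c and, for each tested member averaging at least 100 CPM, the 3 most alike by r over condition means, with other paralog pairs as a range. The strand ratios were added after seeing the data. mRNA data were not analysed here.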

Additional observations from a re-analysis of the deposited data

How the results depend on the processing

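Each condition had 2 libraries, and counts went down to 9 for miR-27a-5p, 3 for miR-27b-5p, 3 for miR-23b-5p and 2 for miR-24-2-5p. The ratios of miR-27b-5p to miR-27a-5p and of miR-23b-5p to miR-23b-3p therefore rest on few counts in some libraries. Leaving out 1 library changed the number of members called to 0 to 4 at D16 of PMD-Sen, 1 to 3 at D16 of DDR-Sen, 2 to 3 in RS, 3 to 5 for late against early PMD-Sen, 1 to 3 for late against early DDR-Sen, 0 to 2 for the interaction and 1 to 2 between the series. Those fits kept the miRNAs of the full fit, and 38 of 156 member calls were lost. With the low-count filter run anew, a choice made after seeing the data as was the first, 49 were lost. The causes were not tested.

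With only the libraries compared, 2 members were called in RS, 7 for late against early DDR-Sen, 1 for the interaction and 18 in place of 6 over the time points before D16. Without a filter these were 2 for the interaction and 3 over the time points before D16. With total counts 4 were called between the series. With the study's thresholds (unadjusted p and a log2 fold change over 1), in edgeR and in DESeq2 alike, 1 was called for late against early PMD-Sen, 0 for late against early DDR-Sen, 1 for the interaction and 0 between the series. Apart from total counts, the share of all tested miRNAs called under the settings of this section is not given here. These member counts show how calls move with the setting and are not a result about the members.

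Signs turned in members that were not called. miR-23a-3p at D16 of PMD-Sen was -0.027 with DESeq2's size factors and in DESeq2, -0.036 with total counts and -0.056 with only the libraries compared (-0.0038 to 0.11 without 1 library). In RS it was -0.023 with total counts (-0.090 to 0.11 without 1 library), and miR-27a-3p ranged from -0.19 to 0.36. miR-27b-5p at D16 of DDR-Sen ranged from -0.15 to 0.43. Between the series, total counts gave 0.037 for miR-23a-3p, 0.039 for miR-24-2-5p and 0.051 for miR-27b-3p. Without 1 library, miR-24-3p ranged from -0.0095 to 0.13, miR-24-2-5p from -0.22 to 0.016 and miR-27b-3p from -0.15 to 0.0049.

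The PMD-Sen late-early difference of miR-24-1-5p to miR-24-2-5p was -1.08 with a pseudocount of 2, -1.64 with D0 among the early days and -1.90 without D16, each with an adjusted p below the threshold (-1.61 to -0.86 without 1 library). In DDR-Sen it was -0.17 without D16. The PMD-Sen difference of miR-27b-5p to miR-27a-5p was 0.87 without D16 (0.93 to 1.40 without 1 library). With replicate 1 alone, PMD-Sen minus DDR-Sen was -0.22 for the miR-23 3p pair and -0.023 for the miR-27 5p pair, and neither passed the threshold. The 5p to 3p ratio of miR-23b in DDR-Sen was 0.042 with D0 and 0.061 without D16 (-0.26 to 0.033 without 1 library). Of the paralog ratio values, 89 without 1 library and 41 under other settings kept their direction and side of the threshold.

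Same-numbered samples deviated together with r over 0.1 in 53 of 153 pairs of conditions (-0.46 to 0.37), so the numbers were not taken to pair them. With the replicate block, the members called were 4 at D16 of PMD-Sen, 3 at D16 of DDR-Sen, 4 in RS, 4 and 3 for late against early, 0 for the interaction, 1 between the series and 8 in place of 6 before D16. Of the ratios, the block changed the call of 1, the 5p to 3p ratio of miR-27a in PMD-Sen (-0.54, exact permutation, adjusted p = 0.0267).

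Total counts changed the higher and lower calls over all miRNAs from 18 and 6 to 8 and 23 at D4 of DDR-Sen, and from 7 and 6 to 15 and 7 for the interaction.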
